A study of Mus musculus with 14 samples.

Results

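The dependence of the IL4 response on the setting of the cells was measured over 14 mouse libraries labelled as macrophages. Of these, 8 came from culture and 6 from leukemic bone marrow, and together they are 14 of the 14 libraries of the series. They were taken by their labels: every library of both experiments entered, and the 9474 gene symbols held in both tables were joined. All mice were C57BL/6J. In culture, monocytes purified from bone marrow were grown for 7 days in CSF1, a growth factor required by macrophages, alone (4 controls) or with murine IL4 at 20 ng/mL (4 libraries). CSF1 is given as 25 ng/mL in the growth protocol and as 20 ng/mL in the design text. In marrow, mice received acute myeloid leukemia (AML) cells with an IL4 cDNA (3 libraries) or an empty vector (3 controls) by transplantation, and F4/80-positive cells were sorted 12 days later. All marrow libraries therefore come from leukemic hosts, the source of IL4 there is the leukemia, and the dose that reached the sorted cells, the genotype of the leukemia and the age of the hosts are not stated in the labels. The labels do not say whether each library had its own culture or animal. The spread behind every p-value is that among the libraries themselves and may be technical.

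IL4 binds the receptor chain IL4RA, and Janus kinases then phosphorylate STAT6, which enters the nucleus and switches on genes of alternative macrophage activation such as Arg1, Retnla and Chil3. In bone marrow, resident F4/80-positive macrophages carry scavenger receptors and complement C1q, surround maturing red cell precursors and take up dying cells and iron. Macrophages grown with CSF1 in a dish share many of these genes but develop without that niche. Each gene has an IL4 change (log2, IL4 minus control) in culture and another in marrow. The interaction is the culture change minus the marrow change, so a value above 0 means a change that was more positive in culture.

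Each library held 506679 to 820540 recovered reads (median per gene 23.5 to 41), so genes with few reads have wide counting error. Read numbers below are per library and not scaled to depth, while changes, tests and statements on overlap use log2 values centred on the median of each library. The sort label was checked against markers. The F4/80 gene, listed as Emr1, had 1511 to 2415 reads in culture controls but 28 to 65 in marrow controls, and the 24 macrophage identity genes summed to 23631 to 43127 and 2704 to 2807 reads. The 8 measured neutrophil markers summed to 38754 to 44917 reads in marrow controls, 24552 to 37927 in marrow IL4 libraries and at most 398 in any culture library, with S100a9 alone at 12728 to 19949 in marrow. None of these 8 rose or fell with IL4 in marrow. The 24 macrophage identity genes summed to 2311 to 3927 reads in marrow IL4 libraries, so neutrophil markers exceeded them in both marrow groups. Marrow changes below are thus changes in the RNA of the sorted samples, not of macrophages alone. In bulk RNA, fewer cells of a type and less RNA per cell cannot be told apart, and the part of other cells in the marrow values was not tested. Culture replicate 4 of both groups stood apart from replicates 1 to 3 (chi-square per degree of freedom 4.15 to 5.88, against 1.37 to 2.17 for all other pairs of a group).

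The interaction passed an adjusted p below 0.05 (limma, Benjamini-Hochberg over all genes) for 1789 genes, or 18.9% of those tested, with 889 above 0 (9.38%) and 900 below 0 (9.5%). Without centring the split was 611 above and 1575 below, since IL4 libraries in culture have lower deposited medians (the median change over all genes was then -0.36 in culture and -0.06 in marrow). IL4 changed 2753 genes in culture (29.1%) and 1559 in marrow (16.5%). In culture 14.8% of all genes rose and 14.2% fell, and in marrow 8.9% rose and 7.56% fell. The values of control and IL4 libraries did not overlap in 29% of all genes in culture and 37.8% in marrow. Counts in lists and statements on overlap below are to be read beside these shares. Of the 677 genes called in both settings, which are 24.6% of the culture calls and 43.4% of the marrow calls, 487 moved the same way and 190 (2.01% of all genes) moved in opposite directions. Over all genes the changes in both settings had a Spearman's rho of 0.20, a description across genes, which are not independent replicates.

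Genes with a called interaction were placed in classes. In 107 genes (1.13%) IL4 raised the level in culture and lowered it in marrow, and in 83 genes (0.876%) it did the reverse. Changes called in 1 setting and not in the other numbered 425 up (4.49%) and 465 down (4.91%) in culture, and 221 up (2.33%) and 245 down (2.59%) in marrow. In both directions together that is 9.39% of all genes for culture and 4.92% for marrow. A missed threshold does not show that a gene stayed level, so a stricter form asked that the 95% interval of the other setting's change lie within -1 and 1 on the log2 scale. This form held for 281 and 259 of the culture genes and 179 and 168 of the marrow genes. A further 91 genes (0.961%) changed the same way by different amounts, and in 152 (1.6%) only the interaction passed.

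**Figure D1:**
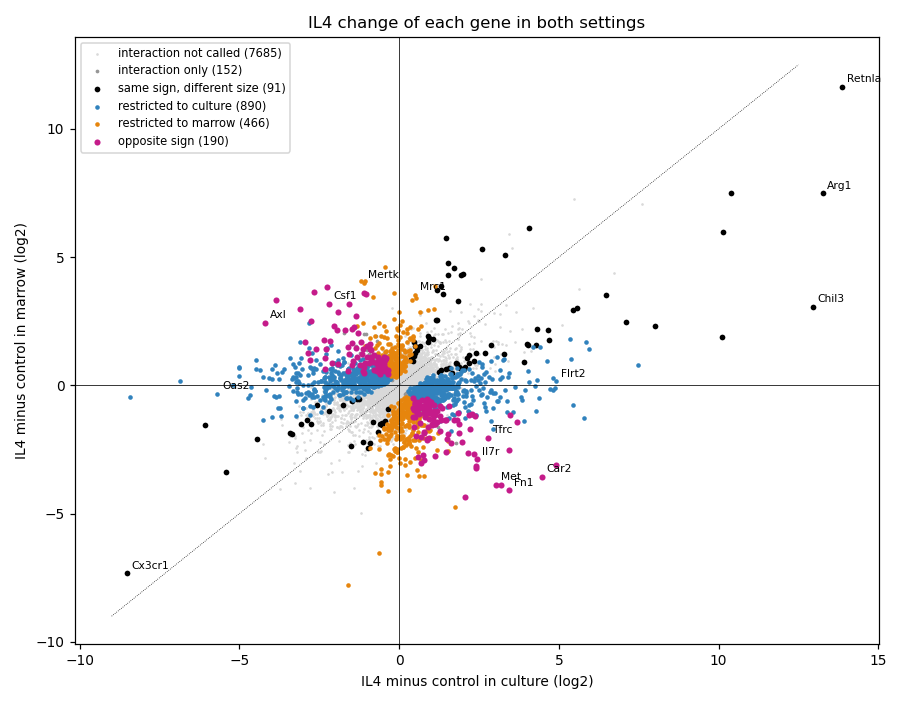
IL4 change in culture (x axis, log2) against IL4 change in marrow (y axis, log2) for 9474 genes, 1 point per gene, coloured by class; the dotted line marks equal changes. The 190 genes of opposite sign lie in the upper left and lower right quadrants, while Retnla, Arg1 and Chil3 rose in both settings and Cx3cr1 fell in both.

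Fibronectin, a receptor tyrosine kinase, a cytokine receptor and iron uptake genes led the set that rose with IL4 in culture and fell in marrow. Fn1 (chr1:71585520-71653200 on mm10), which encodes the matrix protein fibronectin, had 214, 456, 253 and 313 reads in culture controls and 3528, 2984, 2320 and 2123 with IL4. In marrow it had 1708, 2241 and 2707 reads in controls and 69, 76 and 277 with IL4. Groups did not overlap in either setting, and the setting with the higher Fn1 level was marrow in controls and culture with IL4. The changes were 3.45 ± 0.32 (SE) in culture and -4.10 ± 0.37 in marrow, an interaction of 7.55 ± 0.49 (limma adjusted p = 7.22e-07).

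Met (chr6:17463800-17573980), the receptor for hepatocyte growth factor, had 3, 8, 3 and 4 reads in culture controls and 45, 47, 36 and 12 with IL4. In marrow it went from 39, 25 and 24 reads to 4, 0 and 2. The interaction was 6.91 ± 0.92 (adjusted p = 0.000144), at low depth throughout. Its ligand gene Hgf, chosen here for that reason after its values were seen, had 22, 7 and 13 reads in marrow controls and 135, 197 and 278 with IL4 (4.05 ± 0.50, adjusted p = 7.68e-05), while its culture change did not pass (-1.18, adjusted p = 0.0524).

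Il7r (chr15:9505788-9530176), the receptor chain for the lymphoid cytokine IL7, had 150, 57, 73 and 287 reads in culture controls and 594, 632, 532 and 365 with IL4. In marrow it had 25, 23 and 36 in controls and 2, 3 and 4 with IL4 (interaction 5.32 ± 0.57, adjusted p = 2.64e-05). It is the single measured gene of the T and NK cell marker list. Of the 5 measured genes of the B cell list, Blnk (0.75 and -2.73), Cd72 (0.78 and -2.92) and Cd22 (interaction 2.91) had interactions above 0. Blnk and Cd72, a B cell adaptor and a B cell surface receptor that macrophages also express, were of opposite sign, and their culture rises did not pass without centring (adjusted p = 0.135 and 0.176), that of Cd72 neither in 6 other alternatives. Summed reads of the B cell list were 276 to 340 in marrow controls and 174 to 305 with IL4; their part in these changes was not tested.

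Uptake of iron from transferrin was a role shared by 2 of the leading genes. Tfrc (chr16:32608920-32632794), the transferrin receptor, had 102, 99, 76 and 42 reads in culture controls and 382, 315, 359 and 771 with IL4, against 433, 437 and 499 in marrow controls and 85, 75 and 149 with IL4. Steap3 (chr1:120190757-120272705), the endosomal reductase that frees iron taken up by that receptor, had 63, 55, 36 and 54 reads in culture controls and 160, 160, 157 and 183 with IL4. In marrow its reads were 37, 45 and 45 in controls and 4, 9 and 13 with IL4. Interactions were 4.82 ± 0.46 for Tfrc (adjusted p = 9.48e-06) and 4.16 ± 0.34 for Steap3 (2.77e-06).

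Car2, Alad and Blvrb, also used by red cell precursors, fell in marrow as well, while the list of iron and heme genes was mixed there. Car2 (chr3:14886273-14900770), carbonic anhydrase 2, had 478, 483 and 520 reads in marrow controls and 20, 40 and 63 with IL4, against 0 to 1 in culture controls and 6 to 31 with IL4 (interaction 8.03 ± 0.66, adjusted p = 2.77e-06; the culture controls hold 2 reads in all, so its size depends on the 0.5 read added before the log). Alad, an enzyme of heme synthesis, fell in marrow from 72, 53 and 61 reads to 6, 5 and 13 (-2.82 ± 0.51), and its change in culture did not pass (-0.02, adjusted p = 0.983). Blvrb, a biliverdin reductase, fell in marrow from 101, 92 and 95 reads to 11, 18 and 29 (-2.23 ± 0.18), with 0.15 ± 0.16 in culture. Tfrc and Car2 are the 2 measured genes of a 16-gene erythroid marker list, so red cell precursors were not well covered, and their part in these values was not tested. Of 20 measured genes of iron and heme handling 7 rose and 6 fell in marrow, and 7 rose and 2 fell in culture. The marrow rises included Ftl1 (0.85) and Cd163 (2.44). In this list 9 genes had called interactions, 6 above 0 and 3 below 0. Slc40a1, the iron exporter ferroportin, went the other way, from 265 to 474 reads in culture controls to 0, 1, 3 and 13 with IL4, with 95 to 153 and 112 to 175 reads in marrow (interaction -7.03 ± 1.09, adjusted p = 0.000476).

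Transcription factors of alternative activation were split between the settings. Of 31 measured, 16 had called interactions, 9 above 0 and 7 below 0, and 4 rose in culture and fell in marrow. Irf4, which drives IL4 programs in macrophages, rose in culture from 6, 4, 4 and 11 reads to 71, 70, 59 and 63, and fell in marrow from 53, 55 and 60 reads to 13, 19 and 24 (3.68 ± 0.25 and -1.44 ± 0.28). Klf4, a cofactor of STAT6, had 19, 11, 16 and 12 reads in culture controls and 57, 52, 38 and 28 with IL4, and 84, 85 and 90 in marrow controls against 24, 27 and 42 (1.82 ± 0.17 and -1.34 ± 0.20). For both genes the setting with the higher level was marrow in controls and culture with IL4.

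Cebpb (chr2:167688915-167690418), a factor of myeloid and stress responses, rose in culture from 29, 15, 39 and 59 reads to 149, 162, 102 and 93 and fell in marrow from 106, 126 and 77 to 35, 16 and 37 (interaction 3.91 ± 0.54, adjusted p = 0.000182). Zeb2, a repressor that keeps macrophage identity, had changes of 0.46 ± 0.13 and -1.61 ± 0.15, and its small culture rise did not pass without centring (adjusted p = 0.587) or with quantile normalization (0.205). Irf8, a factor of monocyte development, fell in marrow (139, 196 and 149 reads to 23, 47 and 34, -2.08 ± 0.28), with -0.46 in culture (adjusted p = 0.178). Pparg, the lipid-sensing nuclear receptor, rose in both, from 17 to 44 reads to 70 to 93 in culture and from 0, 1 and 0 to 9, 11 and 18 in marrow. The inhibitors of differentiation differed: Id1 fell in culture (37, 35, 29 and 26 reads to 1, 1, 0 and 2) and had 18, 15 and 12 against 20, 14 and 29 reads in marrow, while Id3 fell in both (-5.42 and -3.38).

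**Figure D2:**
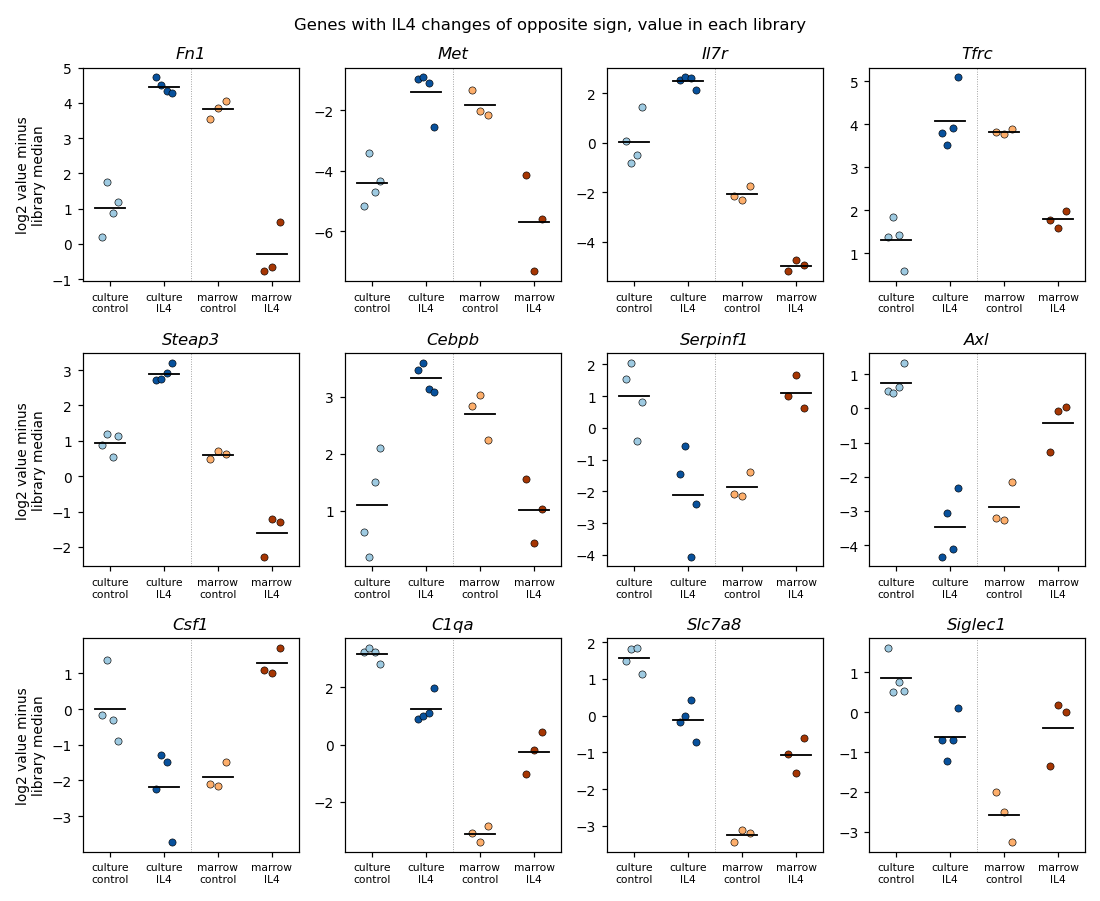
Median-centred log2 values of the 12 genes named for opposite IL4 changes, 1 point per library and a bar at the group mean, with culture on the left of each panel and marrow on the right. In the first 6 panels the level rises with IL4 in culture and falls in marrow, and in the last 6 it falls in culture and rises in marrow. Groups do not overlap within either setting, which the rule that named these genes required.

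Complement C1q, the receptor gene Axl and the growth factor gene Csf1 were among those of the opposite direction, down in culture and up in marrow. All 3 chains of C1q, which tags dying cells for uptake, were in this class, although the culture fall of C1qc did not pass without culture control replicate 1 or 2 or without culture IL4 replicate 1, 2 or 3. C1qa (chr4:136895917-136898803) had 667, 531, 494 and 364 reads in culture controls and 94, 101, 93 and 161 with IL4, and 6, 5 and 8 in marrow controls and 22, 40 and 93 with IL4. C1qb (chr4:136880129-136886187) had 1455, 916, 874 and 940 reads in culture controls and 365, 361, 363 and 587 with IL4, and 5, 4 and 5 against 31, 44 and 110 in marrow. C1qc (chr4:136889804-136893065) fell from 722 to 1123 reads to 272 to 413 in culture and rose from 2 to 8 reads to 28 to 115 in marrow. Groups did not overlap for any chain in either setting, and the levels in marrow with IL4 remained below those of either culture group. Changes were -1.92 ± 0.29 and 2.87 ± 0.33 for C1qa, -1.04 ± 0.24 and 3.54 ± 0.28 for C1qb, and -1.08 ± 0.34 and 3.59 ± 0.39 for C1qc, with interactions of -4.79, -4.59 and -4.68 (adjusted p = 8.08e-06, 2.77e-06 and 3.47e-05). The chains lie side by side on chromosome 4, and the marrow controls rest on few reads.

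Axl (chr7:25757273-25788705), a receptor that binds dying cells through GAS6, had 144, 98, 112 and 185 reads in culture controls and 3, 8, 3 and 11 with IL4. In marrow it had 8, 8 and 19 reads in controls and 26, 61 and 99 with IL4 (changes -4.20 ± 0.44 and 2.44 ± 0.51, interaction -6.64 ± 0.68, adjusted p = 1.74e-05). Its relative Mertk (chr2:128698956-128802894) had 3, 0 and 0 reads in marrow controls and 10, 10 and 23 with IL4 (95% interval of the change 2.76 to 5.25, adjusted p = 0.000321). In culture Mertk had 152, 105, 102 and 163 reads in controls and 57, 36, 38 and 70 with IL4, groups that did not overlap, yet the change did not pass (-1.11 ± 0.50, adjusted p = 0.115); it passed without centring (adjusted p = 0.0266), which made its signs opposite. Of 25 measured apoptotic cell receptor and engulfment genes Axl was the 1 of this class, and interactions were above 0 in 9 and below 0 in 6. The shared ligand gene Gas6 fell in culture from 241 to 435 reads to 25 to 36 and had 0 to 1 in marrow, too few to read a change.

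Csf1 (chr3:107741048-107760469), which encodes the growth factor supplied to the cultures, had 51, 106, 33 and 22 reads in culture controls and 8, 16, 12 and 2 with IL4, against 10, 10 and 17 in marrow controls and 77, 74 and 181 with IL4 (interaction -5.38 ± 0.78, adjusted p = 0.00028). The receptor gene Csf1r fell in both settings (-0.60 ± 0.20 and -1.06 ± 0.23), and its interaction did not pass (0.47, adjusted p = 0.322). Siglec1 (chr2:131069220-131086765), the sialic acid receptor CD169 of resident macrophages, had 290, 96, 116 and 99 reads in culture controls and 41, 28, 35 and 58 with IL4, and 18, 13 and 8 against 23, 68 and 91 in marrow (interaction -3.68 ± 0.59). The amino acid transporter gene Slc7a8 (chr14:54722209-54781946) and Serpinf1 (chr11:75409769-75422701), a secreted serpin, completed the 6 named, with Axl, Csf1, C1qa and Siglec1, for the largest smaller one of the 2 changes, with interactions of -3.86 ± 0.40 and -6.10 ± 0.96. Serpinf1 had 7 to 40 reads in culture controls and 0 to 6 with IL4, and 2 to 4 and 17 to 27 in marrow.

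The receptor for IL4 itself was among these genes. Il4ra had 155, 115, 104 and 93 reads in culture controls and 62, 63, 47 and 50 with IL4, and 62, 62 and 52 in marrow controls and 115, 84 and 174 with IL4 (-0.77 ± 0.14 and 1.18 ± 0.16, interaction -1.95 ± 0.21, adjusted p = 3.21e-05). Stat6 passed in neither setting (0.20 and 0.34) and had an interaction of -0.14 (adjusted p = 0.631; 95% interval of the culture change -0.04 to 0.44, of the marrow change 0.07 to 0.62). Of 19 measured genes of IL4 receptor signalling and its feedback 7 had called interactions, 2 above 0 and 5 below 0. Ptpn6 and Inpp5d, phosphatases that restrain cytokine signals, fell in culture (-1.20 ± 0.10 and -1.26 ± 0.13) with marrow changes of 0.20 and -0.07, whose 95% intervals were -0.04 to 0.45 and -0.40 to 0.26.

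Genes of resident marrow macrophages, as a list, went down with IL4 in culture and up in marrow. Of 22 measured, 13 fell and 4 rose in culture (14.2% and 14.8% of all genes did) and 14 rose and 1 fell in marrow (8.9% and 7.56%). The interaction passed in 16, all below 0, and in 7 both changes passed with opposite sign: C1qa, C1qb, C1qc, Axl, Siglec1, Folr2 and Sepp1. The list's median change was -1.26 in culture and 1.96 in marrow, beside 0.00 and 0.04 over all genes. In single libraries the median difference from the control mean ran from -1.50 to -0.74 in the 4 culture IL4 libraries and from 1.41 to 2.54 in the 3 marrow IL4 libraries. The summed reads of the list were 13478 to 24598 in culture controls and 8257 to 11954 with IL4, but 646 to 761 in marrow controls and 732 to 2579 with IL4. F4/80 moved with it in direction: Emr1 fell in culture (912, 798, 745 and 784 reads with IL4, -0.81 ± 0.25) and was higher in marrow (28, 65 and 39 in controls, 37, 74 and 126 with IL4, 0.91 ± 0.28, adjusted p = 0.0401), where groups overlapped and the rise did not pass without centring, with quantile normalization or with upper quartile centring (adjusted p = 0.0812, 0.0622 and 0.0513), and the gene left its class in 14 of 24 alternatives. The part of a changed share of such cells in the marrow values was not tested.

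Other lists of uptake genes followed in part. Of 13 measured genes of complement C1q and opsonins 7 had called interactions, 5 below 0 and 2 above 0. The 5 include C1qa, C1qb, C1qc and Gas6, all described above, so this count largely repeats them. The 2 above 0 were Mfge8 and Thbs1. Thbs1, thrombospondin, which binds CD47, fell in marrow from 147, 100 and 378 reads to 0, 1 and 0, while its culture change did not pass (-1.61, adjusted p = 0.0688). Of 12 Fc gamma receptor genes and their signalling partners 6 had interactions, all below 0. Fcgrt, the neonatal Fc receptor, had 111 to 172 reads in culture controls and 26 to 48 with IL4, and 10 to 23 and 23 to 76 in marrow (-1.47 ± 0.30 and 1.64 ± 0.34). Fcer1g, the shared signalling chain, moved less (-0.61 ± 0.10 and 0.46 ± 0.12), and its marrow rise did not pass without centring (adjusted p = 0.052). Spp1, osteopontin, fell in culture from 631 to 1227 reads to 176 to 367 and rose in marrow from 4 to 11 to 27 to 46 (interaction -4.05 ± 0.41).

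Collagen and other stromal genes fell with IL4 in culture. Of 7 measured endothelial and stromal markers 4 had interactions below 0 and 1 above 0 (Pecam1), and Col1a2, a collagen I chain, went from 249 to 491 reads to 26 to 62 in culture and from 0 to 1 to 3 to 9 in marrow. The 7 genes summed to 677 to 1283 reads in culture controls and 129 to 243 with IL4, and to 58 to 81 and 111 to 270 in marrow, so stromal transcripts moved with the group in both settings; their part in the other changes was not tested.

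**Figure D3:**
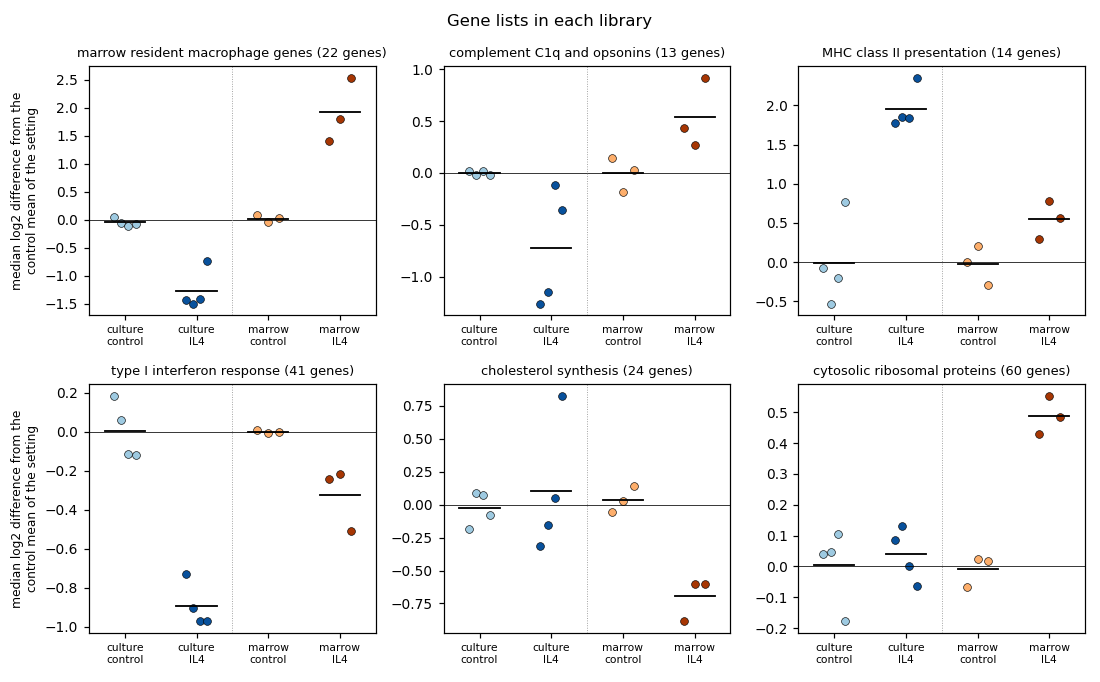
Median over the measured genes of 6 lists of the log2 difference from the control mean of the same setting, 1 point per library with a bar at the group mean. The resident macrophage genes lie below 0 in the 4 culture IL4 libraries and above 0 in the 3 marrow IL4 libraries, and the ribosomal protein genes stand above 0 in marrow IL4 libraries (0.43 to 0.55) while culture IL4 libraries overlap their controls.

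MHC class II presentation, glycolysis and bone resorption genes had more called rises in culture than in marrow. In the list for MHC class II presentation, with 14 measured genes, culture had 9 rises and 0 falls, marrow had 3 rises and 2 falls, and 9 interactions passed, all above 0 (medians 1.95 and 0.76). Without centring marrow had 0 rises and 2 falls. The class II chain genes H2-Aa, H2-Ab1 and H2-Eb1 changed by 4.18, 4.41 and 4.02 in culture. In marrow they changed by 1.49, 1.48 and 1.62, of which only that of H2-Eb1 passed. Cd74, the invariant chain that carries MHC class II, rose in both, although its marrow rise passed narrowly and not without centring (adjusted p = 0.0522): 268, 103, 178 and 628 reads against 3237, 3583, 3172 and 5650 in culture, and 241, 309 and 137 against 454, 625 and 683 in marrow (4.29 ± 0.43 and 1.57 ± 0.50, interaction 2.71 ± 0.66, adjusted p = 0.0109). H2-DMa, which helps load peptides, rose in culture (2.06 ± 0.26) with 0.19 ± 0.30 in marrow, as did the thiol reductase gene Ifi30 (1.56 ± 0.15 and -0.11 ± 0.17). Ctss, the protease that trims the invariant chain, was the 1 gene of the list with opposite signs (1.84 ± 0.30 and -1.07 ± 0.34), but in 12 of 24 alternatives, 10 of them with 1 library left out, its marrow fall did not pass. MHC class I presentation did not share the direction of class II. Of its 18 measured genes 4 rose and 1 fell in culture, 7 rose and 0 fell in marrow, and interactions were above 0 in 1 and below 0 in 4. Without centring 1 rose and 6 fell in culture, and 3 rose in marrow.

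Of 27 genes of glycolysis and the pentose phosphate pathway 17 rose and 4 fell in culture, 5 rose and 1 fell in marrow, and 10 interactions passed, 7 above 0 and 3 below 0. The list's median change was 1.39 in culture and 0.43 in marrow. Estimates were above 0 for 21 of the 27 genes in culture and 24 in marrow. Hk2, hexokinase 2, had 47 to 66 reads in culture controls and 80 to 218 with IL4, and 103 to 110 and 54 to 114 in marrow (1.75 ± 0.21 and -0.32 ± 0.25). Slc16a3, a lactate exporter, rose in culture (2.64 ± 0.28) with 0.43 ± 0.32 in marrow, and Ldha, lactate dehydrogenase, rose in both (2.07 and 0.72). Without culture replicate 4 of both groups the count above 0 went from 7 to 14. The 7 were the glucose transporter gene Slc2a1, Hk2, Pfkp, Pfkfb3, Pgam1, Ldha and Slc16a3. The 3 below 0, G6pdx, Pgd and Taldo1, belong to the pentose phosphate branch, and each fell in culture.

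Of 13 measured osteoclast genes 8 rose and 1 fell in culture, 2 rose and 1 fell in marrow, and 6 had interactions above 0 and 1 below 0. Acp5, the tartrate-resistant acid phosphatase of osteoclasts, had 5, 7, 20 and 14 reads in culture controls and 296, 312, 207 and 142 with IL4, but 32, 36 and 38 against 14, 24 and 70 in marrow (4.72 ± 0.43 and -0.13 ± 0.50). Itgb3, the integrin chain of the bone-sealing receptor, rose in both settings (4.70 and 1.77). Among lysosomal cathepsins and hydrolases 17 of 45 had interactions, 10 above 0 and 7 below 0, so that list showed no single direction.

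By size, the culture rises with a marrow change bounded within 1 were led by Flrt2, Mcf2l, Gpc1, Ptgir, Arrdc4 and Slc25a13. Flrt2 (chr12:95692226-95785215), an adhesion protein, had 19, 15, 18 and 28 reads in culture controls and 571, 639, 518 and 319 with IL4, and 0 reads in all 6 marrow libraries. Its marrow interval is therefore no measure of a change there, and among the 425 genes that rose in culture alone 48 had a mean under 10 reads in marrow. Better covered in marrow, Gpc1, a cell surface proteoglycan, had 33, 64, 39 and 54 reads against 473, 488, 328 and 276 in culture, and 72, 75 and 78 against 64, 46 and 72 in marrow (3.31 ± 0.26, and -0.17 with a 95% interval of -0.80 to 0.47). Ptgir, the prostacyclin receptor, rose in culture from 3 to 6 reads to 28 to 54 and had 28 to 45 and 37 to 54 in marrow (0.49, interval -0.02 to 0.99). Tmem26 and Itgax, surface genes raised by IL4 in culture, had culture changes of 7.47 ± 0.39 and 5.39 ± 0.68, with marrow changes of 0.79 and 1.02 that did not pass (adjusted p = 0.266 and 0.421).

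**Figure D4:**
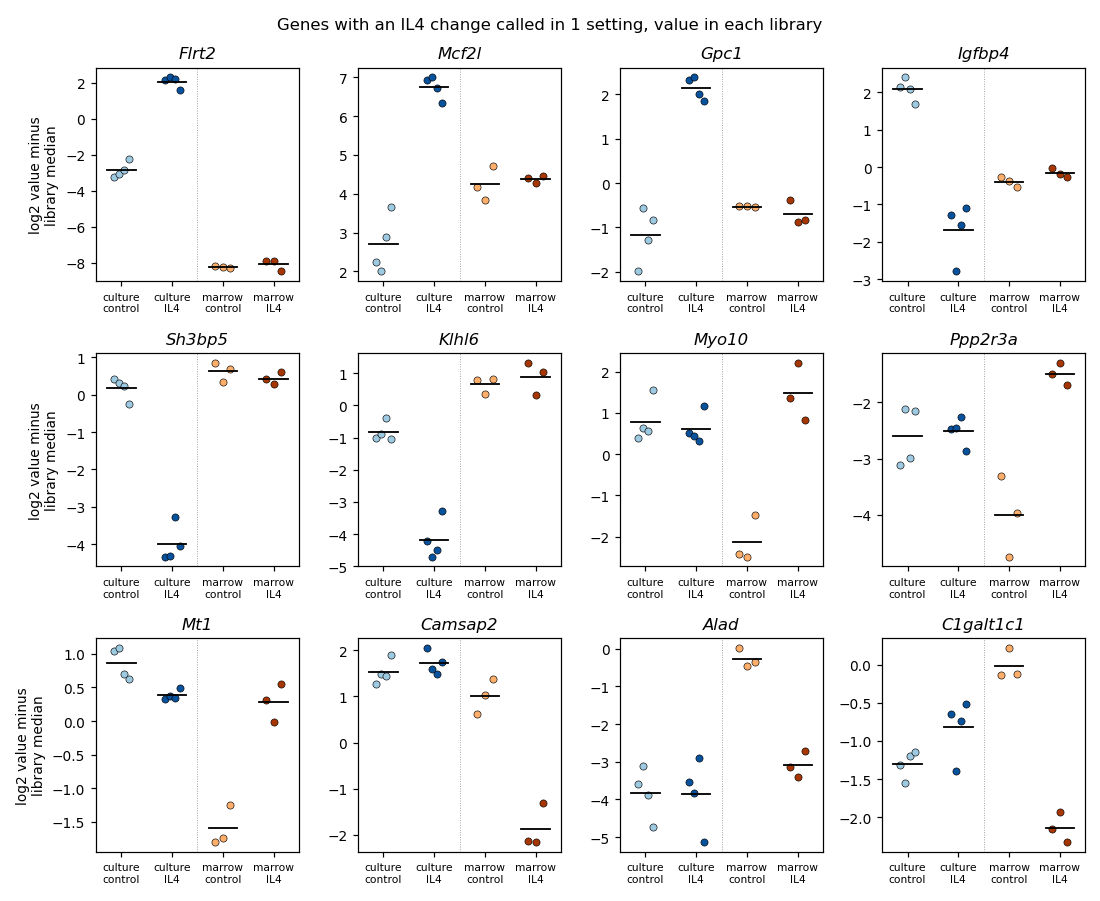
Median-centred log2 values of 12 genes whose IL4 change passed in 1 setting and was bounded within 1 in the other, 3 per class, 1 point per library and a bar at the group mean. Flrt2, Mcf2l and Gpc1 rise and Igfbp4, Sh3bp5 and Klhl6 fall with a change called in culture alone. Myo10, Ppp2r3a and Mt1 rise and Camsap2, Alad and C1galt1c1 fall with a change called in marrow alone. The culture fall of Mt1 narrowly missed the threshold, and with each of the other scalings Mt1 counted as opposite in sign. Flrt2 has 0 reads in every marrow library, where its value reflects depth.

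Type I interferon response genes fell mainly in culture, and cytoskeletal and adhesion genes were divided there. Of 41 measured type I interferon response genes 24 fell and 5 rose in culture, 5 fell and 0 rose in marrow, and 22 interactions passed, 15 below 0 and 7 above 0; all 15 below 0 were falls called in culture alone. Oas2, an antiviral sensor of double-stranded RNA (chr5:120730333-120749853), had 115, 73, 52 and 32 reads in culture controls and 2, 0, 1 and 0 with IL4, but 63, 45 and 70 in marrow controls and 32, 36 and 62 with IL4 (-5.69 ± 0.45, resting on 3 reads with IL4, and -0.33 with an interval of -1.44 to 0.79). Oas1g, a relative whose reads cannot be separated with certainty from those of its near copies, had -1.71 ± 0.27 in culture and 0.90 ± 0.31 in marrow (adjusted p = 0.0613). Ifi204, an interferon-induced DNA sensor, went against the list: it fell in marrow from 58, 61 and 78 reads to 14, 17 and 18 (-1.81 ± 0.19), with -0.14 in culture. The list's median was -0.96 in culture and -0.33 in marrow, and its level did not overlap between groups in either setting.

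Leading the bounded culture falls were Igfbp4, Sh3bp5, Klhl6, Fmnl1, Ssh2 and Rab32. Fmnl1, a formin that builds actin filaments in leukocytes, had 308, 173, 219 and 166 reads in culture controls and 18, 21, 20 and 20 with IL4. In marrow it had 388, 428 and 393 reads in controls and 463, 401 and 601 with IL4 (-3.10 ± 0.13 and 0.42 ± 0.15, interaction -3.52 ± 0.20, adjusted p = 1.41e-07). Igfbp4, which binds insulin-like growth factors, had 197 to 372 reads against 8 to 24 in culture, and 49 to 54 against 47 to 67 in marrow. Ssh2, a phosphatase that activates cofilin, went from 99 to 155 reads to 4 to 9 in culture and had 153 to 191 and 73 to 164 in marrow (-3.87 ± 0.19 and -0.46 ± 0.22).

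Of 39 actin and migration genes 8 rose and 11 fell in culture, 2 rose and 2 fell in marrow, and 11 interactions were below 0 and 6 above 0. Coro1a, which binds actin in leukocytes, fell in culture from 238 to 568 reads to 49 to 89 and had 1243 to 1381 and 1218 to 2020 in marrow (-2.07 ± 0.18 and 0.33 ± 0.21). Capg, an actin capping protein, had opposite signs, 1.34 ± 0.11 and -0.88 ± 0.13. Of 23 chemokine receptors and integrins 9 rose and 9 fell in culture. The integrin chains Itgal and Itga6 fell (-4.66 ± 0.35 and -2.35 ± 0.17, with -0.36 and 0.29 in marrow), while Itgax, Itgb3, Itgb2 and Itgam rose. Neutrophil marker reads were abundant in the marrow libraries and summed to at most 398 in any culture library. Genes such as Coro1a and Itgal are known to be expressed by neutrophils, and the part of these cells in the marrow values was not tested.

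Inhibitory receptors were divided in culture. Of 23 measured phagocytosis checkpoint genes 5 rose and 7 fell in culture, 7 rose and 2 fell in marrow, and 11 had interactions, 9 below 0 and 2 above 0. Sirpa, the receptor on macrophages for the CD47 signal, had 1689 to 2702 reads in culture controls and 1011 to 1309 with IL4 (-0.58 ± 0.11), and 0.00 ± 0.12 in marrow with an interval of -0.26 to 0.27 (interaction adjusted p = 0.0229). Cd47 rose by nearly equal amounts, 0.72 ± 0.10 and 0.79 ± 0.12, with an interaction of -0.07 ± 0.16 (adjusted p = 0.808). Siglece, an inhibitory sialic acid receptor, had 3 to 12 reads in culture controls and 0 in all 4 IL4 libraries, against 49 to 77 and 75 to 153 in marrow. Tlr2, a receptor for bacterial lipoproteins, fell in culture from 44 to 93 reads to 1 to 6 (-3.79 ± 0.39), with -0.90 in marrow (adjusted p = 0.189).

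Cell division genes fell with IL4 in culture, and the size of the gap to marrow depended on 1 pair of libraries. Of 72 mitosis genes 67 fell in culture and 13 in marrow (medians -2.18 and -1.09), and 6 interactions passed, all below 0. Without culture replicate 4 of both groups 55 passed, all below 0. In the 48 DNA replication genes the count below 0 went from 1 to 17, and in the 30 genes of DNA repair by recombination from 0 to 9. Mki67, the proliferation marker, had 625, 445, 498 and 142 reads in culture controls and 32, 42, 48 and 72 with IL4, so control replicate 4 stood apart. In marrow it had 1226, 1450 and 1587 against 353, 449 and 550 (-2.72 ± 0.36 and -1.51 ± 0.41, interaction adjusted p = 0.144).

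The mannose receptor gene and part of the ribosomal protein genes rose in marrow and not detectably in culture, while tRNA synthetase and ATF4 genes rose in both settings. Mrc1 (chr2:14229392-14332057), the mannose receptor CD206 and a common marker of IL4-exposed macrophages, had 12, 10 and 9 reads in marrow controls and 53, 101 and 255 with IL4, which did not overlap (3.53 ± 0.33, adjusted p = 7.01e-06). In culture it was already at 1024, 875, 766 and 439 reads in controls and had 1051, 1016, 747 and 699 with IL4, groups that overlapped (0.50 ± 0.29, 95% interval -0.11 to 1.11). The interaction was -3.03 ± 0.44 (adjusted p = 0.000268).

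By size, marrow rises with a bounded culture change were led by Myo10, Ppp2r3a, Mt1, Slc38a6, Snx8 and Shmt2. Myo10, a myosin of filopodia, had 4, 4 and 9 reads in marrow controls and 50, 92 and 53 with IL4, and 33 to 66 against 23 to 40 in culture (3.61 ± 0.39 and -0.18 ± 0.33). Shmt2, which feeds mitochondrial folate metabolism, rose from 47, 65 and 64 reads to 137, 154 and 192 in marrow and had 24 to 59 and 14 to 35 in culture (1.61 ± 0.34 and -0.28 ± 0.29). Mt1, a metallothionein that binds zinc, rose in marrow (1.88 ± 0.20) and narrowly missed the threshold in culture (-0.48 ± 0.18, adjusted p = 0.0528); with each of the other scalings it counted as opposite in sign.

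Of 60 measured cytosolic ribosomal protein genes 19 rose and 0 fell in marrow, and 1 rose and 1 fell in culture. The interaction passed in 14 (23.3%, beside 18.9% of all genes), all below 0 (9.5% of all genes were). The changes were small, with medians of 0.49 in marrow and 0.03 in culture. Rplp0, a stalk protein of the large subunit, had 275, 301 and 260 reads in marrow controls and 311, 354 and 535 with IL4 (0.64 ± 0.12), and -0.20 ± 0.11 in culture. Without centring 24 interactions passed and 18 of the genes fell in culture, so the culture side of the list turned with the scaling while the marrow rise did not (median 0.38). Ribosomal protein genes have many near-identical pseudogenes, and the labels do not say how reads shared with them were counted.

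Of 20 aminoacyl-tRNA synthetase genes, which charge tRNAs with amino acids, 11 rose in marrow and 9 in culture, and none fell. Without centring 10 rose in marrow, and 3 rose and 3 fell in culture. Interactions passed in 6, 5 below 0 and 1 above 0. Lars and Nars rose in marrow (1.77 ± 0.19 and 1.12 ± 0.17) with 0.44 and 0.20 in culture, while Rars rose in culture (1.53 ± 0.18) with 0.10 in marrow. Of 23 genes of the ATF4 stress response 16 rose in each setting, and 5 interactions were below 0 and 2 above 0. Atf5, a target and relative of ATF4, had 8, 4 and 4 reads in marrow controls and 79, 125 and 172 with IL4, and 11 to 28 against 18 to 93 in culture (4.59 ± 0.47 and 1.72 ± 0.41).

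Cholesterol synthesis genes fell in marrow, and in culture none of the list fell unless values were left uncentred, when 3 did. Of 24 measured genes of cholesterol synthesis 7 fell and 0 rose in marrow, 5 rose and 0 fell in culture, and 8 interactions passed, all above 0. Sqle, squalene epoxidase, had opposite signs (26, 18, 25 and 18 reads against 41, 44, 45 and 44 in culture, and 12, 13 and 11 against 4, 7 and 3 in marrow), although its marrow fall did not pass with separate fits or without marrow IL4 replicate 3 or marrow control replicate 1 or 2. Msmo1, a sterol oxidase, had 0.47 ± 0.16 in culture, which did not pass under any of the other scalings, and -0.98 ± 0.18 in marrow. The list's median was 0.00 in culture and -0.82 in marrow. No centring, quantile normalization and upper quartile centring gave 5, 6 and 7 interactions, all above 0, and without culture replicate 4 of both groups 9 were above 0 and 1 below 0.

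Bounded marrow falls of large size included, in that order, Camsap2, Alad, C1galt1c1, Abcb4 and S100a10. S100a10, a partner of annexin A2, had 75, 88 and 83 reads in marrow controls and 13, 19 and 14 with IL4, and 79 to 140 against 110 to 121 in culture (-2.24 ± 0.24 and 0.32 ± 0.21). Camsap2, which caps microtubule ends, had 29, 40 and 54 reads against 3, 3 and 9 in marrow, and 48 to 66 against 41 to 71 in culture. Abcb4, a phospholipid transporter, had 74, 63 and 56 reads against 4, 7 and 14 in marrow (-2.87 ± 0.26 and -0.28 ± 0.23). Of 9 monocyte markers 5 fell and 1 rose (Chil3) in marrow, and 4 fell and 2 rose (Chil3 and Fn1) in culture. Ccr2, the receptor that brings monocytes to tissues, went from 449, 530 and 507 reads to 23, 28 and 46 in marrow and from 47 to 144 to 2 to 29 in culture, with an interaction of 0.54 (adjusted p = 0.72). The part of fewer monocytes in the marrow falls was not tested.

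The best known IL4 genes rose in both settings by different amounts. Retnla (chr16:48842551-48844461), a secreted protein of alternative activation, had 0 reads in all controls of both settings, 5597, 4902, 4641 and 11618 in culture with IL4, and 895, 1061 and 3037 in marrow with IL4. Chil3 (chr3:106147554-106167564), a chitinase-like protein, had 2, 6, 2 and 2 reads in culture controls and 15896 to 27681 with IL4, but 2205 to 2739 in marrow controls and 15723 to 24205 with IL4 (12.95 ± 0.29 and 3.06 ± 0.34, interaction 9.89 ± 0.44, adjusted p = 1.35e-08). With IL4 the Chil3 reads of both settings overlapped, while those of the controls did not. Arg1 (chr10:24915221-24927484), arginase 1, had 0, 0, 1 and 0 reads in culture controls and 8038, 8497, 6839 and 1714 with IL4, and 0, 1 and 2 against 94, 169 and 486 in marrow. Fitted changes of Retnla and Arg1 depend on the 0.5 read added before the log, so their interactions (2.24 and 5.77) are not bounds, and both missed the threshold with precision weights on the recovered reads (adjusted p = 0.601 and 0.255). Of 21 measured effectors of alternative activation 17 rose in each setting, 8 of them with a called difference in size.

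Other genes moved the same way in both settings at read numbers too low to compare sizes. Cx3cr1, the fractalkine receptor, went from 154 to 286 reads to 0 in all 4 culture IL4 libraries, and from 79, 95 and 96 reads to 0 in all 3 marrow IL4 libraries. Stab1, a scavenger receptor, fell from 1840 to 3021 reads to 23 to 40 in culture, while the marrow libraries held 2 to 4 (controls) and 0 to 1 reads (IL4). Tuba8, a tubulin, had 0 reads in all culture controls and 50 to 61 with IL4, and 7 to 25 against 66 to 89 in marrow.

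Across lists, the share of called interactions ran from 0 to 72.7% where at least 5 genes were measured, beside 18.9% of all genes. Besides DNA replication, DNA repair and mitosis, it was lowest in mitochondrial ribosomal proteins (3 of 73), ribosome assembly (4 of 58), the proteasome (3 of 38) and oxidative phosphorylation (5 of 46). Apoptotic cell receptors and engulfment machinery had 15 of 25, chemokine receptors and integrins 12 of 23, extracellular matrix and growth factors 13 of 27 and macrophage identity 12 of 24, each with both directions. Closer to the share of all genes were lipid uptake and efflux with 8 of 33 (24.2%), ER folding with 8 of 45 (17.8%) and MHC class I with 5 of 18 (27.8%). So were the citrate cycle with 5 of 23 (21.7%) and arginine metabolism with 3 of 14 (21.4%). Classical activation had 7 of 19 (36.8%), chemokines 5 of 9 and NADPH oxidase 5 of 9 (55.6% each).

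**Figure D5:**
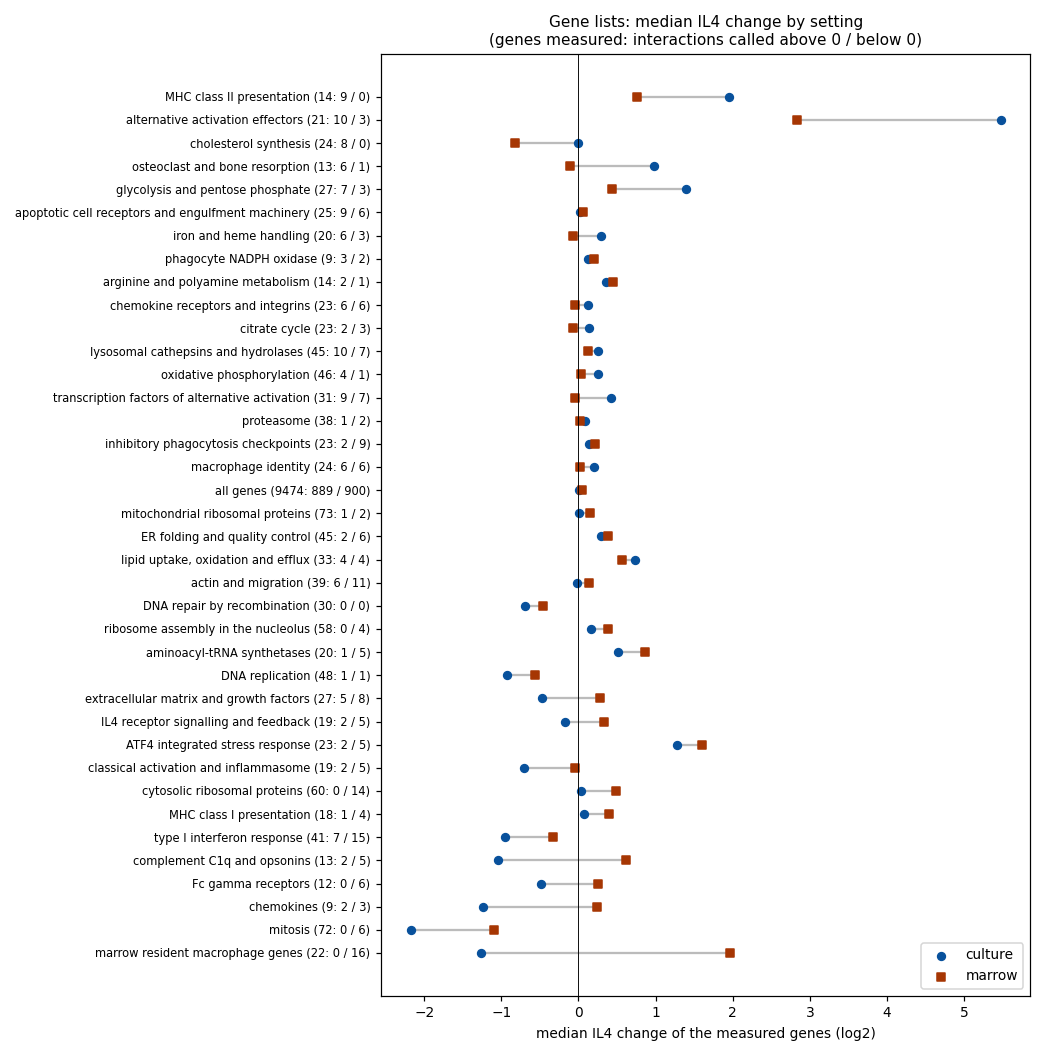
Median IL4 change (log2) of the measured genes of the pathway and macrophage lists, without the lists for other cell types, in culture (circles) and marrow (squares), ordered by the median interaction, with the numbers of genes measured and of interactions above and below 0 in brackets. The resident macrophage list stands at the bottom, with -1.26 in culture and 1.96 in marrow, and all genes sit near 0 in both settings.

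Stress and dissociation genes moved with the groups as well. Of 26 measured 10 had interactions, 8 above 0 and 2 below 0. The heat shock genes Hspa1a and Hspa1b, near-identical copies whose reads cannot be separated with certainty, had opposite signs at 24 or fewer reads in any library. Their relative Hsph1 rose in culture from 30 to 43 reads to 101 to 176 and had 20 to 26 against 9 to 19 in marrow (2.31 ± 0.20 and -0.58 ± 0.23). Egr1, an immediate early gene, fell in culture from 279 to 322 reads to 16 to 57 and had 18 to 23 against 23 to 128 in marrow, where its rise (1.27 ± 0.41) did not pass without centring or with upper quartile centring (adjusted p = 0.0705 and 0.0554), nor in most fits with 1 library left out, and the gene left its class in 15 of 24 alternatives. Sorting and culture differ in handling, and the part of handling in the opposite sign genes was not tested.

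Distances between the settings were compared without and with IL4. Over all genes, the gap between culture and marrow was smaller with IL4 in 41.5%. Among genes that rose in culture and fell in marrow it was smaller in 19 of 107, while the median gap went from -0.03 in controls to 2.32 with IL4, and 53 were higher in culture in controls against 102 with IL4. Among genes that fell in culture and rose in marrow it was smaller in 46 of 83, with a median gap of 1.08 in controls and -0.99 with IL4. Of those 83, 57 were higher in culture in controls and 23 with IL4. As levels enter both the classes and the gap, these values describe the classes and test nothing.

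Promoter sequence was examined because STAT6 binds a palindrome, TTCNNNNGAA, and other STAT proteins prefer TTCNNNGAA. RefSeq starts on GRCm38.p6 were available for 7322 of the 9474 genes (77.3%), and the 250 bases before each start were searched on both strands. The STAT6 pattern stood in 5.57% of these genes and in 5.85% of all 32851 promoters. It stood in 5 of 85 genes that rose in culture and fell in marrow (5.88%), 2 of 62 with the reverse (3.23%), 20 of 308 (6.49%) and 25 of 359 (6.96%) up and down in culture alone, and 18 of 167 (10.8%) and 13 of 187 (6.95%) up and down in marrow alone. The shorter pattern stood in 6.95% of measured genes and 7.02% of all promoters, and in 11 of 85 (12.9%) and 8 of 62 (12.9%) of the opposite sign genes. It stood in 17 of 308 (5.52%) and 32 of 359 (8.91%) up and down in culture alone. For up and down in marrow alone it was 12 of 167 (7.19%) and 13 of 187 (6.95%). The 2 patterns differ in spacing and can overlap. A match is a description of letters, not of binding.

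Upstream sequences of 4 genes are shown to set a gene that rose in both settings by a large factor (Retnla) and a gene whose size of change differed most (Chil3) beside a gene of opposite sign (C1qb) and a gene that rose in marrow alone (Mrc1). Retnla has the STAT6 pattern starting 145 bases before its RefSeq start, Chil3 the shorter pattern starting 172 bases before it, and C1qb and Mrc1 neither within 250 bases. Capitals mark the match. Positions are chr16:48842359-48842550 on the plus strand, chr3:106167565-106167814 on the minus strand, chr4:136886201-136886450 on the minus strand and chr2:14229164-14229391 on the plus strand, without bases inside the annotated gene.
Retnla: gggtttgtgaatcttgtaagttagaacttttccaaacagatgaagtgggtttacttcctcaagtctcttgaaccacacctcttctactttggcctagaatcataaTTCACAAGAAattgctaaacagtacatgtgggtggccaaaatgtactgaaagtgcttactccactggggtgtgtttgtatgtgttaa
Chil3: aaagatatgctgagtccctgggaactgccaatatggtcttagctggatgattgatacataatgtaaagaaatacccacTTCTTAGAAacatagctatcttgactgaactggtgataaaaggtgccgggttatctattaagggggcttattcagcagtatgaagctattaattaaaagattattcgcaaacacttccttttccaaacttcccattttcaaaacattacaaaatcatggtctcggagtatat
C1qb: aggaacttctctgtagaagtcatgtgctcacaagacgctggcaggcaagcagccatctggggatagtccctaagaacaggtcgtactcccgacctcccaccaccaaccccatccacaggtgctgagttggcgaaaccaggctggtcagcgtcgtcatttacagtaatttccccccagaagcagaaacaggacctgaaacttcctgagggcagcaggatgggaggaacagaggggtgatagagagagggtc
Mrc1: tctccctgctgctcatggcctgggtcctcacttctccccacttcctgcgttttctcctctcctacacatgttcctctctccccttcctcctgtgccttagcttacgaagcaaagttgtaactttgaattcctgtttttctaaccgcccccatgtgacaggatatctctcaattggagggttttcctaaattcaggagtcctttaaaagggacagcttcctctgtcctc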

How the data were processed

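The 14 mouse libraries, labelled as macrophages, were TruSeq RNA v2 libraries, per the labels' protocols. Reads were aligned with TopHat2 2.0.13 to mm10, per the submitters' processing notes; counting, strand and normalization: not given in the sources used here. The authors deposited 1 table for culture and 1 for marrow, holding log2 values per library and the authors' own fold changes (ratio), p-values and q-values, which were not used. The deposited log2 values behave as log2 of reads plus 0.5 with a constant per gene and library, and whole reads were recovered from them for 9424 of 9474 genes (99.472%, residuals up to 0.00062 log2); Psap, Itgam and 48 others have none.

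Values were centred on each library's median and fitted with limma 3.58.1 in R 4.3.3 (4 group means, variance trend, 10 residual degrees of freedom), and p-values were adjusted by Benjamini-Hochberg over 9474 genes at a threshold of 0.05. Whole reads were recovered with the same constant per gene in both tables. Since the sources do not state how the tables were normalized, levels set across them carry that limit. Setting, table, duration and sorting cannot be told apart. The fit was also run on simulated reads, with the same spread setting for all genes and equal levels in all groups apart from planted changes. That setting is simpler than these data, so the run does not bear on the calls reported here. All columns of values per sample entered.

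Named were the 6 largest genes of each class (by the smaller of both absolute changes for opposite signs, otherwise by the absolute interaction) without predicted genes, with groups that did not overlap and at least 20 reads in the higher group, 4 of the same sign, the 3 members of smallest p in each list with at least 3 called interactions, and a set of markers; 1 gene that the rule names is not reported here. S100a9, Itgb2, Hgf, Slc40a1, Pparg, Gas6, Folr2, Sepp1, Mfge8, Thbs1, Pecam1, H2-Aa, H2-Ab1, H2-Eb1, Slc2a1, Pfkp, Pfkfb3, Pgam1, G6pdx, Pgd, Taldo1, Hspa1a and Hspa1b were added after their values were seen. Members and lists were chosen with earlier results of these data known. Alternatives covered scaling, variance trend, precision and library weights, filters, thresholds, separate fits, a replicate block and each library left out. TopHat2 reads shared by near-identical genes may be split between them.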

Additional observations from a re-analysis of the deposited data

Results flagged for a closer look

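In 11 of the 114 culture groups tested (57 genes), the highest or lowest of 4 libraries lay apart, with the gap to its neighbour, divided by the group's range, above Dixon's critical value for 4 samples; chance gives about 1 in 20 groups. Replicate 4 was the library in 7 of the 11. With IL4, replicate 4 was lowest for Met (0.892) and Arg1 (0.945) and highest for C1qc (0.856), Retnla (0.881) and Cd74 (0.833). Among controls, replicate 4 was highest for Mertk (0.832) and lowest for Mki67 (0.926). Control replicate 2 was highest for Shmt2 (0.872) and Ear2 (0.836). Control replicate 1 was lowest for Tuba8 and Retnla (0.932 each), where all 4 controls have 0 reads and the value reflects depth alone.

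IL4 changes differed between the settings by the interaction test, with opposite signs, for 12 genes, 6 in each direction, named for the size of the smaller of their 2 changes; other genes, such as Irf4 (5.12), had larger interactions than some of them. The interaction (log2) was 7.55 for Fn1, 6.91 for Met, 5.32 for Il7r, 4.82 for Tfrc, 4.16 for Steap3 and 3.91 for Cebpb. It was -6.64 for Axl, -6.10 for Serpinf1, -5.38 for Csf1, -4.79 for C1qa, -3.86 for Slc7a8 and -3.68 for Siglec1.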

How the results depend on the processing

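Without centring, 2186 interactions passed in place of 1789 (611 above and 1575 below 0), with 1344 restricted to culture in place of 890. At a threshold of 0.01 there were 868 interactions, 74 of opposite sign, 481 restricted to culture, 200 restricted to marrow, 31 of the same sign, and 1789 culture and 748 marrow changes. Asking for changes of at least 1 left 79 of opposite sign, 572 restricted to culture and 301 restricted to marrow. Same sign calls numbered 185 with separate fits and 217 without culture replicate 4 of both groups, in place of 91. Leaving out 1 library at a time gave 1438 (without marrow control replicate 2) to 2028 (without culture control replicate 4) interactions, 138 to 231 of opposite sign, 740 to 1011 restricted to culture, 323 to 475 restricted to marrow, 64 to 156 of the same sign, the highest without culture control replicate 4, and 2322 to 2863 culture and 1081 to 1730 marrow changes. With a replicate block 1565 interactions passed, with 188 of opposite sign, 781 restricted to culture and 388 restricted to marrow. Class members changed more than class sizes. Without centring 57 of the 107 genes up in culture and down in marrow kept that class. So did 62 of the 83 with the reverse and 94 of the 221 up in marrow alone. In the same order, 77, 53 and 124 kept it without marrow control replicate 2, and 91, 74 and 180 with quantile normalization. Deviations of libraries with the same number correlated at -0.045 to 0.022 in culture, against -0.0339 to 0.0331 for different numbers. In marrow the same numbers gave 0.0264 to 0.059 and different numbers -0.0444 to 0.0116. These values are small and do not settle whether the numbers pair the samples. Of 148 named genes with a called interaction 130 kept it under all 24 alternatives and none reversed, and 79 of the 148 kept their class. Most of these were named for large changes or small p in the main fit, which favours keeping the call. Of all 1789 calls, single alternatives kept 76.7% (without marrow control replicate 2) to 99.8% (separate fits). The interaction of Ccr2, not called, ranged from -0.0961 (adjusted p = 0.935, without culture IL4 replicate 4) to 1.1848 (without culture IL4 replicate 2) when 1 library was left out, and the cause was not tested. Depth limits genes with few reads: at a median of 23.5 to 41 reads per gene the median standard error of an interaction was 0.35, so smaller differences were often not detectable.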
